A study of Oryza sativa with 8 samples.

Results

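A set of 10 genes through which rice roots take up nitrate and ammonium was followed from intact roots into roots digested to protoplasts. They were chosen by their locus identifiers of release 7 of the Michigan State University (MSU) rice annotation and make up 10 of the 55986 genes listed in each library. They comprise the ammonium transporters AMT1;1 (LOC_Os04g43070), AMT1;2 (LOC_Os02g40710), AMT1;3 (LOC_Os02g40730) and AMT2;1 (LOC_Os05g39240), the nitrate transporters NRT2.1 (LOC_Os02g02170), NRT2.2 (LOC_Os02g02190), NRT2.3 (LOC_Os01g50820) and NRT2.4 (LOC_Os01g36720), the NRT2 partner protein NAR2.1 (LOC_Os02g38230), and the nitrate transporter NRT1.1B (LOC_Os10g40600). Roots of gel-grown Xkitaake seedlings were either harvested directly (intact roots, 4 libraries) or digested by a protoplast cocktail (digested roots, 4 libraries), the latter being collected as protoplasts plus undigested tissue. Xkitaake is the Kitaake rice line that carries the immune receptor gene XA21 under a maize ubiquitin promoter, and both groups carry it. The labels give its genotype as WT, list all root cell types, and give Yoshida's nutrient solution in gellan gum with 1 to 3 days in a chamber at 28 °C for all 8 libraries. The comparison serves to find genes that respond to protoplasting, so that they can be set aside in single-cell data. Nothing in the labels says that the replicates came from separate plants or cultures, so p-values measure the spread between these samples, which may be technical.

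Rice takes up ammonium through AMT1 proteins, high-affinity transporters of the plasma membrane of root cells, and nitrate through NRT2 proteins at low external concentrations. NRT2.1, NRT2.2 and NRT2.3 depend on NAR2.1 to reach the plasma membrane, whereas NRT2.4 works without it. NRT1.1B belongs to the NPF family and acts both as a transporter and as a nitrate sensor. Yoshida's solution supplies nitrogen as ammonium nitrate, so that both forms were present in the gel.

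The members include a pair of close neighbours on chromosome 2, NRT2.1 with NRT2.2, and another, LOC_Os02g40710 with LOC_Os02g40730. In either pair the count files list 1 locus in between, and the RefSeq annotation (assembly ASM3414082v1) lists 0 genes in between. The coding regions of NRT2.1 and NRT2.2 are known to be identical, and reads that align at more than 1 place were discarded by the counting. The libraries hold tags from the 3′ end of transcripts, and how many of these fell in the coding regions was not examined. The split of reads between NRT2.1 and NRT2.2 is therefore uncertain. RefSeq attaches the names AMT1-2 and AMT1-3 to both genes of the other pair and places OsAMT1;3 before OsAMT1;2 along the chromosome, opposite to the order of the locus numbers used here. Which locus carries which name was therefore not settled, and these genes are called by their loci below. RefSeq names 8 of the 10 genes but lists no MSU identifier.

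Depth moved with the groups. Intact libraries held 2333236 to 3595349 counts on genes and digested libraries 115006 to 471019, a ratio of medians of 12.5. Levels are given as CPM, counts of a gene scaled by the TMM-adjusted library size of tested genes, the usual counts-per-million measure, and 1 count was worth 0.249 to 0.407 CPM in intact and 2.46 to 9.29 CPM in digested libraries. The libraries were of the QuantSeq type, with about 1 tag at the 3′ end of each transcript and molecular identifiers, so that levels of different genes were compared without dividing by length. Reads that aligned at several places made up 3.93% to 5.36% of the total in intact and 13.0% to 24.3% in digested libraries. Intact replicate 1 stood apart from the other intact libraries (chi-square per degree of freedom of 7.15 to 9.37, against 3.64 to 4.44 among the other 3).

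In intact roots AMT1;1 was the most abundant of the 10 transporter genes by a wide margin, at 446 ± 38.8 CPM (SD, n = 4, as for every mean below), and it took 58.8% to 63.0% of all their counts in each library. Below it lay NAR2.1 at 73.0 ± 20.4 CPM, LOC_Os02g40730 at 54.1 ± 8.30, NRT2.2 at 53.5 ± 9.23 and NRT1.1B at 52.3 ± 11.3. These 4 overlapped each other between libraries, so their order is within the spread. AMT2;1 at 32.0 ± 5.87 CPM and NRT2.3 at 25.8 ± 4.51 followed and also overlapped, as did AMT2;1 with NRT1.1B. NRT2.1 was low at 3.87 ± 1.91 CPM. LOC_Os02g40710 was represented by 1 count in the whole series, and NRT2.4 by 0 in all 8 libraries.

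**Figure D1:**
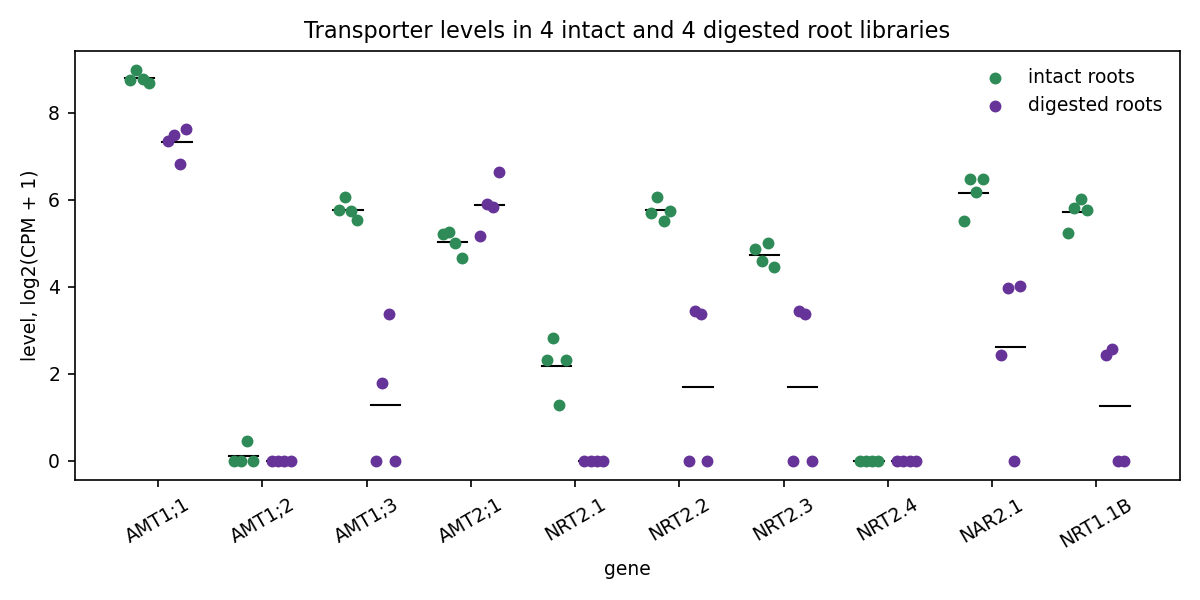
Level of each of the 10 genes as log2(CPM + 1) in each library, intact roots in green and digested roots in purple, with the mean of each group as a black line. The digested points lie below the intact points for AMT1;1, AMT1;3, NRT2.2, NRT2.3, NAR2.1 and NRT1.1B, while those of AMT2;1 overlap the intact points and reach higher. AMT1;2 stands for LOC_Os02g40710 and AMT1;3 for LOC_Os02g40730.

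Of the 7 tested transporter genes, 6 were lower in digested roots and 1, AMT2;1, was higher (edgeR quasi-likelihood test, adjusted p under 0.05). Over all 13104 tested genes, 18.5% were called lower and 20.0% higher, 38.5% in either direction. The median log2 fold change, digested over intact, was -2.84 over the 7 genes and -0.06 over all tested genes. Of the 6 lower genes, all but AMT1;1 passed the filter on low counts through their intact libraries alone. The count of 6, the median over the 7 genes and their ranks among tested genes given below are therefore descriptions. Summed over the 10 genes, the level was 684 to 843 CPM in intact and 195 to 310 CPM in digested libraries, which is 34.7% of intact when counts are pooled within each group. Fewer cells of the type that expresses a gene and less of its RNA per cell cannot be told apart in such bulk samples.

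AMT1;1, the ammonium transporter that rice is known to express most constitutively, fell and yet remained the most abundant of the 10 genes in digested roots. Its level was 431, 502, 440 and 412 CPM in intact replicates 1 to 4 and 162, 179, 112 and 197 CPM in digested replicates 1 to 4. The groups lay far apart, the highest digested library being at 197 and the lowest intact library at 412 CPM. On the log2 scale the difference was -1.43 (SE 0.19, edgeR adjusted p = 4.49e-07), from 446 ± 38.8 to 163 ± 36.8 CPM. Of all tested genes 86.4% had a higher log2 fold change. It was the gene with the most counts in digested roots, where 148 were found and 386 would have been found at the intact level. Pooled, the digested level was 38.3% of intact, with an exact 95% interval of 32.3% to 45.2% that, like every interval here, covers counting error only.

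LOC_Os02g40730, the other AMT1 gene with appreciable counts, fell further. It had 148, 161, 145 and 183 counts in the intact libraries, or 53.2, 65.5, 52.0 and 45.6 CPM. In the digested libraries it had 0, 1, 1 and 0 counts, or 0, 2.46, 9.29 and 0 CPM. All digested libraries were thus below all intact ones, and 46.3 counts would have been found in place of 2 at the intact level. The log2 fold change was -4.51 (SE 0.59, edgeR adjusted p = 3.54e-07), lower than that of 99.2% of tested genes. From summed counts the gene was 23.1-fold lower, with an interval of 6.38-fold to 191-fold. Digested replicate 3 is the only digested library in which a single count lifts it above the filter, and without that library the log2 fold change was -5.38.

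Within the AMT1 reads the pooled intervals of LOC_Os02g40730 did not overlap between the groups. LOC_Os02g40730 took 9.96% to 11.5% of the AMT1 counts in each intact library, or 10.7% of their sum (95% interval 9.93% to 11.5%). In digested roots it took 0 of 37, 1 of 74, 1 of 13 and 0 of 26 AMT1 counts in replicates 1 to 4, and 2 of 150 in all, or 1.33% (0.162% to 4.73%). Digested replicate 2 gave 74 of these 150 counts, and the intervals of replicates 3 (0.195% to 36.0%) and 4 (0% to 13.2%) reach over the intact shares. LOC_Os02g40710 had its single count in intact replicate 3, which is 0.359 CPM there, and could not be compared between the groups. These shares carry no test.

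AMT2;1, from a branch of ammonium transporters separate from AMT1, moved the other way. Its level was 36.0, 37.0, 30.9 and 24.2 CPM in intact replicates 1 to 4 and 35.1, 59.0, 55.8 and 98.5 CPM in digested replicates 1 to 4. Digested replicate 1 lay within the intact range, and the other 3 digested libraries lay above it. The log2 fold change was 0.89 (SE 0.30, edgeR adjusted p = 0.0183), from 32.0 ± 5.87 to 62.1 ± 26.5 CPM, and 81.8% of tested genes had a lower one. The 51 counts in digested roots compare with 27.2 at the intact level, and the pooled level was 188% of intact (137% to 252%). The call depended on single libraries, the scaling and the design of the fit. It was lost without intact replicate 4 (0.68, edgeR adjusted p = 0.0889), without digested replicate 2 (0.73, edgeR adjusted p = 0.143) and without digested replicate 4 (0.58, edgeR adjusted p = 0.173), also under scaling to total counts (0.58, edgeR adjusted p = 0.108) or to upper quartiles (0.63, edgeR adjusted p = 0.0929), and with a replicate block (0.88, edgeR adjusted p = 0.0590). The log2 fold change stayed above 0 in all 17 alternatives, of which 11 kept the call.

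The share of AMT2;1 among the reads of the 4 AMT genes needs no scaling between libraries. It was 6.92%, 6.12%, 5.90% and 5.02% in intact replicates 1 to 4. It was 17.8%, 24.5%, 31.6% and 33.3% in digested replicates 1 to 4. The lowest digested share was above the highest intact share, and pooled it was 5.91% (5.35% to 6.52%) against 25.4% (19.5% to 32.0%). This share was chosen after its values were seen and is given without a test, and it moves with AMT1;1 as well as with AMT2;1 itself. AMT1;1 had 12.0 to 17.1 counts for each count of AMT2;1 in intact and 2 to 4.63 in digested libraries.

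**Figure D2:**
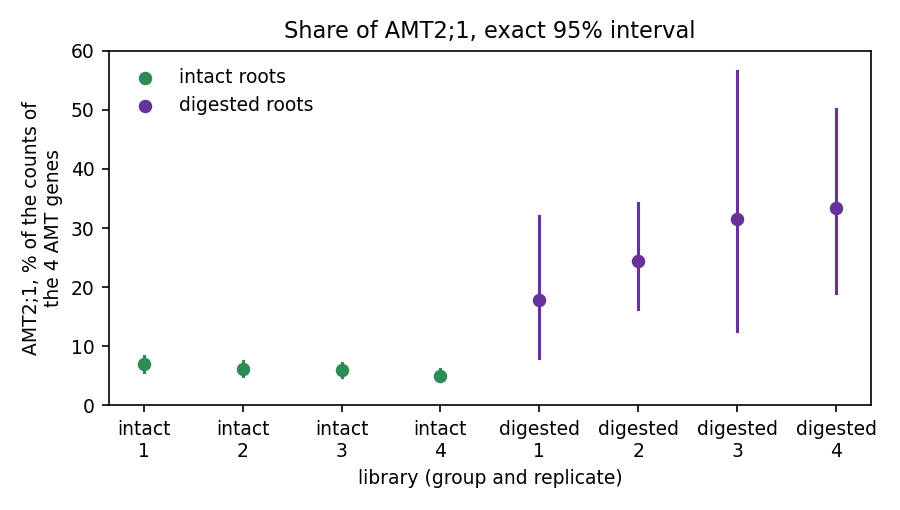
Share of AMT2;1 in the counts of the 4 AMT genes in each library, in percent, with exact 95% intervals as bars. The 4 intact libraries (green) lie between 5.02% and 6.92%, and the 4 digested libraries (purple) between 17.8% and 33.3%, with wide bars because they hold few counts.

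Among the nitrate transporters the NRT2 genes left few reads in the digested libraries. Their counts summed to 229, 235, 214 and 312 in intact replicates 1 to 4 and to 0, 8, 2 and 0 in digested replicates 1 to 4. Digested replicates 1 and 4 thus held no NRT2 read at all. Pooled, 10 counts against 990 gave a digested level of 13.9% of intact. In intact roots NRT2.2 took 64.5% of the summed NRT2 counts, NRT2.3 30.8% and NRT2.1 4.65%.

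NRT2.2 had 50.3, 66.3, 44.5 and 52.9 CPM in the intact and 0, 9.83, 9.29 and 0 CPM in the digested libraries. These digested values are 4 counts in replicate 2 and 1 count in replicate 3. Every digested library was below every intact one, and 46.4 counts would have been found in place of 5 at the intact level. This gave a log2 fold change of -3.22 (SE 0.50, edgeR adjusted p = 6.34e-06), and the pooled level was 10.8% of intact (3.48% to 25.3%). Without digested replicate 2, which holds 4 of the 5 counts, it was -4.75.

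NRT2.3, known for loading nitrate into the xylem, had 28.1, 23.2, 30.9 and 20.9 CPM in the intact libraries. In the digested libraries it had the same 0, 4, 1 and 0 counts as NRT2.2, or 0, 9.83, 9.29 and 0 CPM. The groups did not overlap, but the gap in CPM was the smallest among the lower genes. At the intact level 22.2 counts would have been found in place of 5. Its log2 fold change was -2.17 (SE 0.57, edgeR adjusted p = 0.00300), and the pooled level was 22.6% of intact (7.27% to 53.2%). Without digested replicate 2 it was -3.70. The study lists this gene as a marker of atrichoblasts, the epidermal cells that form no hair.

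NRT2.1 had 11, 15, 4 and 16 counts in the intact libraries, or 3.96, 6.10, 1.44 and 3.99 CPM, and 0 in all 4 digested libraries. It did not pass the filter. At its intact level only 3.34 counts would have been found in all digested libraries together, so that a fall was hardly measurable at this depth. The exact 95% upper limit of the digested level was 115% of intact, which includes no change. Without a filter edgeR gave an adjusted p of 0.0550, with a range of 0.0550 to 0.191 over the 6 alternatives that tested it. NRT2.1 took 3.13% to 8.43% of the reads of NRT2.1 and NRT2.2 in each intact library and 46 of 685 in all, or 6.72% (4.96% to 8.86%). In digested roots it took 0 of 5, which allows a share of up to 52.2%.

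NAR2.1, the partner without which most NRT2 proteins do not reach the membrane, fell beside them. Its level was 44.6, 88.3, 71.8 and 87.3 CPM in intact replicates 1 to 4 and 4.38, 14.7, 0 and 15.1 CPM in digested replicates 1 to 4. The groups did not overlap. It was also the most variable of the tested transporter genes among the intact libraries, with intact replicate 1 lowest and a coefficient of variation of 27.9%. The log2 fold change was -2.84 (SE 0.45, edgeR adjusted p = 8.54e-06), and 9 counts were found where 64.7 would have been at the intact level. Its pooled level of 13.9% of intact (6.34% to 26.5%) equals that of the NRT2 genes summed, which rests on 10 digested counts. The number of NRT2 counts per NAR2.1 count was 1.85 in intact replicate 1 and 1.08, 1.07 and 0.891 in intact replicates 2 to 4. In digested replicates 1 to 4 NRT2 counts were 0, 8, 2 and 0, against 1, 6, 0 and 2 of NAR2.1. These are too few to compare by library. Without digested replicate 2 the log2 fold change of NAR2.1 was -3.66.

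NRT1.1B, the transporter and sensor of the NPF family, was also lower in digested roots. It had 36.7, 54.9, 63.9 and 53.6 CPM in the intact libraries and 4.38, 4.92, 0 and 0 CPM in the digested ones. The digested values stand for 1 and 2 counts, against 102 to 215 in the intact libraries. At the intact level 45.8 counts would have been found in place of 3. The difference was -3.91 on the log2 scale (SE 0.55, edgeR adjusted p = 1.40e-06), lower than that of 98.8% of tested genes. From summed counts it was 15.3-fold lower, with an interval of 5.20-fold to 74.2-fold. Without digested replicate 2 the log2 fold change was -4.73.

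**Figure D3:**
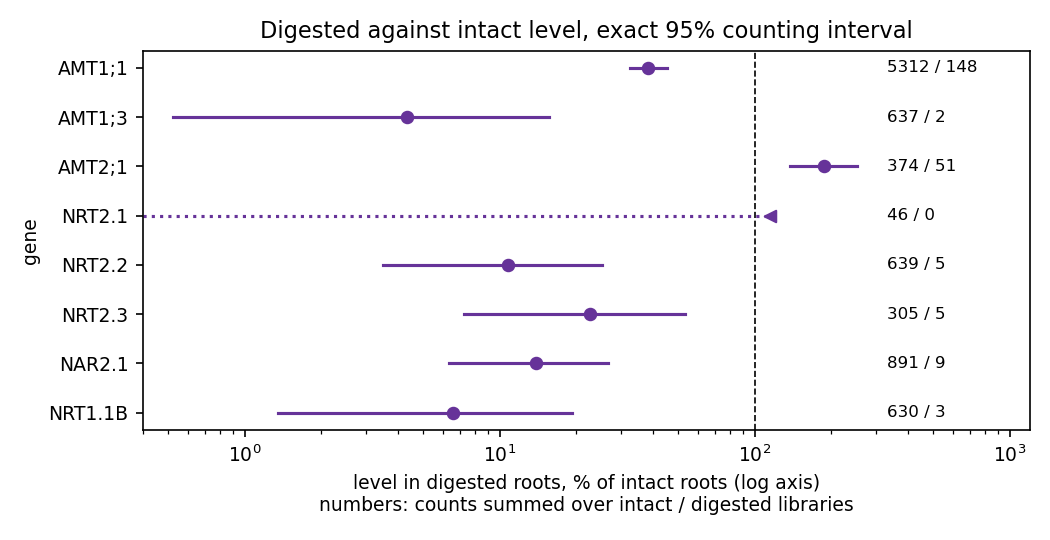
Level in digested roots as a percentage of intact roots (log axis), from counts summed within each group, with exact 95% counting intervals and the summed counts of both groups at the right. The dashed line marks 100%, the arrow for NRT2.1 its upper limit of 115%. AMT1;3 (LOC_Os02g40730) is lowest among the genes with a digested count, at 4.32%, and AMT2;1 is the only gene above 100%, at 188%.

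In each of the 6 lower genes all 4 digested libraries lay below all 4 intact libraries, a pattern seen in 19.8% of tested genes. The 6 were picked because they were called lower, and 5 passed the filter through their intact libraries alone. The 19.8% covers all tested genes whatever their call, so this pattern is a description. NRT2.1, which was not tested, had 0 counts in all digested libraries. At its intact level only 0.411 to 1.55 counts per digested library would have been found, so its lack of overlap says little. The intervals of the pooled levels separated AMT1;1, at no less than 32.3% of intact, from LOC_Os02g40730, NRT2.2, NAR2.1 and NRT1.1B, at no more than 15.7%, 25.3%, 26.5% and 19.2%. Those of the latter 4 overlapped each other, so no order among them can be read from these counts. NRT2.3, with its upper bound of 53.2%, overlapped all of them. All these intervals cover counting error only and leave out the spread between libraries. In digested roots AMT1;1 stayed above AMT2;1, and AMT2;1 above all others, in every library, while NAR2.1, NRT2.2, NRT2.3, LOC_Os02g40730 and NRT1.1B overlapped each other.

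**Figure D4:**
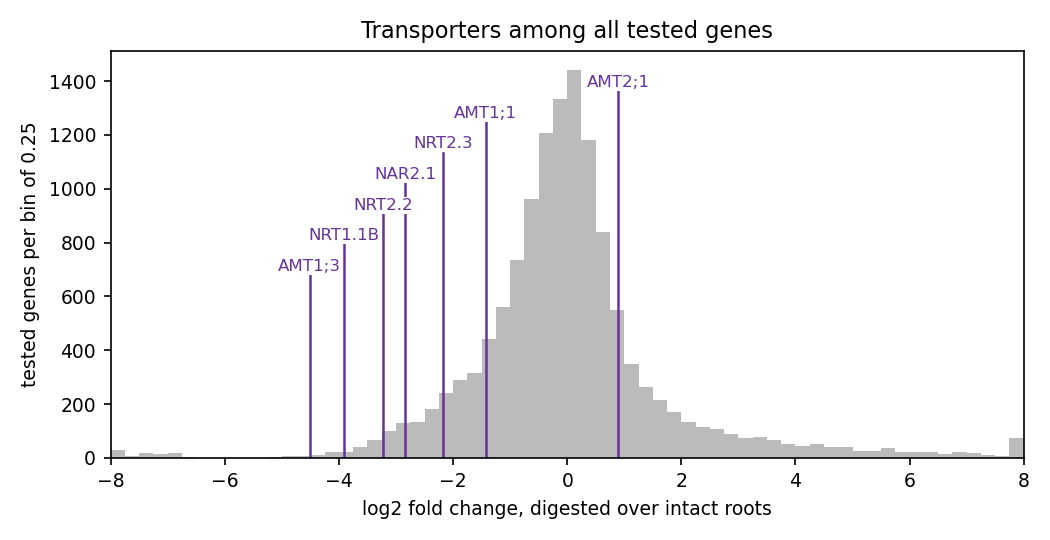
Log2 fold changes (digested over intact roots) of all 13104 tested genes in bins of 0.25, with values beyond -8 and 8 in the end bins, and the 7 tested transporter genes as purple lines whose heights carry no value. AMT1;1 at -1.43 lies at the lower shoulder, 5 genes lie between -2.17 and -4.51, where few genes do, and AMT2;1 lies at 0.89.

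Each of the 6 lower genes was called lower under all 17 alternatives of scaling, filter, test, block or omitted library. These alternatives re-use the same libraries, so their agreement is not independent support. In the main analysis 5 of the 6 passed the filter through their intact libraries alone. Over these the log2 fold change ranged from -1.73 to -1.40 for AMT1;1, from -5.38 to -3.56 for LOC_Os02g40730, from -4.75 to -2.87 for NRT2.2, from -3.70 to -1.81 for NRT2.3, from -3.66 to -2.65 for NAR2.1 and from -4.73 to -3.31 for NRT1.1B. The highest adjusted p among them was 0.0153, for NRT2.3. The narrowest range was that of AMT1;1, which had the most counts.

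**Figure D5:**
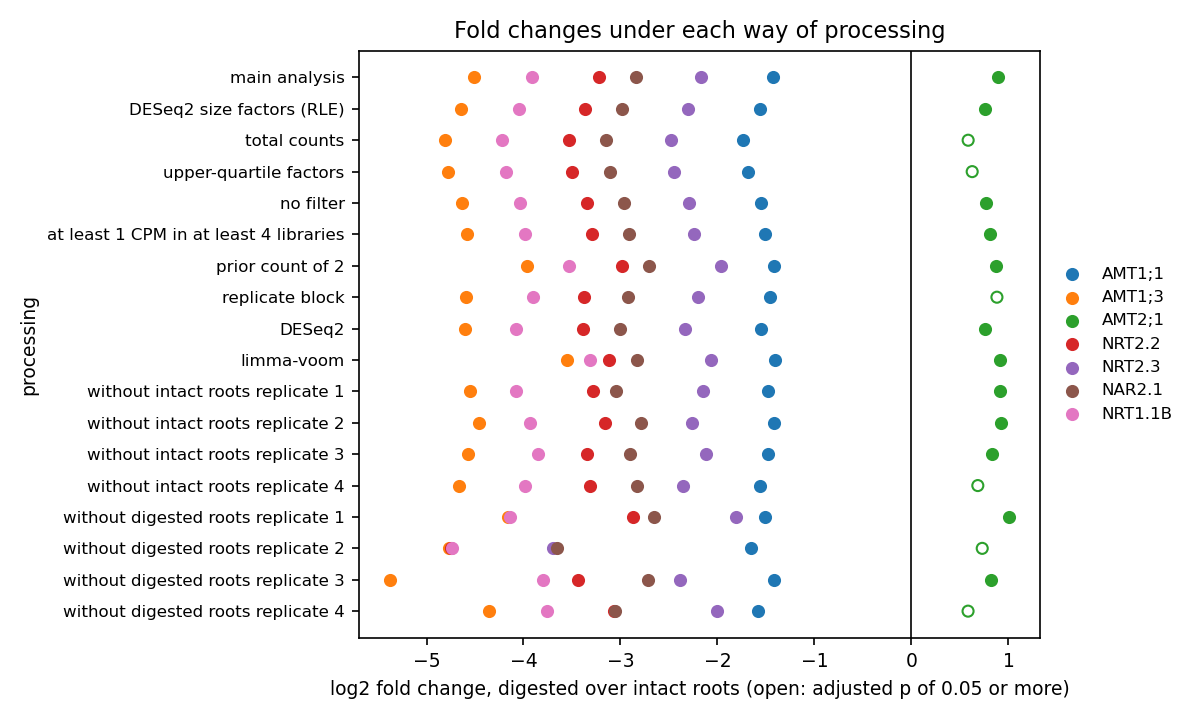
Log2 fold change of the 7 tested transporter genes (horizontal axis) in the main analysis and in each of the 17 alternatives (vertical axis). Filled points have an adjusted p under 0.05, open points do not. The points of AMT2;1 are open in 6 alternatives and lie between 0.58 and 1.01, and those of the other 6 genes are filled throughout.

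Markers of several root cell types moved with the groups. From the study's list 51 markers of 10 cell types were taken, without NRT2.3 and without root cap. Of these, 40 were tested, 23 were lower and 1 was higher in digested roots, with a median log2 fold change of -1.39. Of the 23, 13 passed the filter through their intact libraries alone, so that this count and the median too are descriptions. Of all tested genes 18.5% were called lower. Among trichoblast markers, which mark the root hair cells, 7 of 8 tested were lower, and the summed level of all 11 was 496 to 659 CPM in intact and 83.3 to 195 CPM in digested libraries. The trichoblast markers OsGELP9, RHL1 and LOC_Os03g04210 had 0 counts in all digested libraries, where 0.145, 1.53 and 3.85 would have been found at the intact level, so that their absence says little at this depth. Atrichoblast markers summed to 42.6 to 65.7 CPM in intact and 37.2 to 66.4 in digested libraries, with OsEXPA8 higher and OsSultr1 lower of the 3 tested. Vascular tissue markers were lower in 4 of 4 tested genes (491 to 762 against 114 to 295 CPM) and xylem markers in 4 of 5 (395 to 534 against 127 to 223 CPM). Phloem markers were too low to test, with 7.89 to 11.8 CPM against 0 to 12.3 CPM, and 2 of the 4 had 0 counts in all digested libraries. Lower calls were made for 1 of 2 exodermis markers, 2 of 3 sclerenchyma markers, 3 of 5 cortex markers and 1 of 5 endodermis markers, and for 0 of 5 meristem markers (283 to 397 against 270 to 427 CPM). The part of these shifts in the falls of the transporter genes was not tested.

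The rest of the nitrogen pathway was read through a list of 36 genes. These identifiers were assigned from general knowledge and are not paired with names in the files, apart from NRT1, OsASN1 and OsGLN1;2, which the study names. Of the 22 tested, 9 were lower, 5 were higher and 8 were not called, with a median log2 fold change of -0.85. That is 40.9% lower and 22.7% higher, against 18.5% and 20.0% of all tested genes. The share called higher was thus near that of all genes. Among 15 further transporters, 6 were tested, of which 3 were lower and 1 was higher. LOC_Os08g05910 was the most abundant of those that fell, from 285 ± 36.1 to 43.2 ± 21.8 CPM (log2 fold change -2.82, SE 0.26, edgeR adjusted p = 5.50e-10). It was picked for its large fall, so these values are a description. NRT1, a nitrate transporter gene, was not tested, with 55 counts in intact and 1 in digested roots.

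Among 14 genes for the assimilation of nitrate and ammonium into amino acids, 11 were tested, of which 5 were lower and 4 were higher. Of all tested genes 18.5% were called lower and 20.0% higher. OsASN1, an asparagine synthetase, had 440, 414, 305 and 431 CPM in intact replicates 1 to 4 and 127, 226, 102 and 189 CPM in digested replicates 1 to 4. Its groups did not overlap, and the log2 fold change was -1.23 (SE 0.21, edgeR adjusted p = 2.86e-05), close to that of AMT1;1. The study also lists OsASN1 as a root cap marker. OsGLN1;2 (LOC_Os03g12290), a cytosolic glutamine synthetase, had 663, 943, 681 and 662 CPM in the intact and 127, 150, 74.3 and 98.5 CPM in the digested libraries. Its groups did not overlap either, and it fell from 737 ± 137 to 112 ± 33.0 CPM (log2 fold change -2.61, SE 0.21, edgeR adjusted p = 3.87e-11). LOC_Os02g53130 rose from 5.43 to 79.7 CPM (log2 fold change 3.91, SE 0.32, edgeR adjusted p = 4.12e-11). LOC_Os03g50490 rose from 4.30 to 36.9 CPM (3.22, SE 0.41, edgeR adjusted p = 2.51e-07). Both had more CPM in each digested library than in any intact one. Both also passed the filter through their digested libraries alone and were picked for their large rise, so these values are a description. Among 7 regulators, 5 were tested and 1 was lower, LOC_Os09g37710, with 206 counts in intact and 1 in digested roots (log2 fold change -3.82, SE 0.88, edgeR adjusted p = 0.000880). Its fold change turned on that 1 count, in digested replicate 3, and ranged from -7.99 to -2.33 over the 13 alternatives that tested it. This gene passed the filter through its intact libraries alone and was picked for its large fall, so its values too are a description. The share of tested genes called lower was thus 6 of 7 among the transporters chosen here and 9 of 22 in the rest of the list. It was 18.5% among all tested genes. Of the 6 lower transporters 5 passed the filter through their intact libraries alone, and of the 9 lower list genes 1 did. The shares are therefore not alike in how genes entered the test, and their difference was not tested.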

How the data were processed

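RNA of 4 intact and 4 digested root samples was sequenced as 3′ tags with molecular identifiers (Lexogen QuantSeq 3′ FWD). The authors aligned the reads to the MSU rice genome, release 7, and deposited whole counts per gene from HTSeq, without normalization, 1 file per library. The submitters' processing notes name STAR, UMI-tools, HTSeq and edgeR, without versions. The strand setting of the counting is not given in the sources used here. Rows that name no gene were left out of all totals and fits, and the row for reads outside genes held 13.0% to 13.9% (intact) and 13.4% to 14.9% (digested) of the file.

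Groups and replicate numbers came from the sample titles. The deposited counts were fitted with edgeR 4.0.16 under R 4.3.3 (the filter of filterByExpr, set by group, requires the equivalent of 10 counts in the median library, 7.13 CPM, in at least 4 libraries; TMM; robust glmQLFit; glmQLFTest; prior count 0.125; Benjamini-Hochberg adjustment over all 13104 tested genes). The standard error is the absolute log2 fold change over the square root of F. Pooled levels are summed counts over summed scaled library sizes, with exact binomial intervals. Alternatives used DESeq2 1.42.0, limma 3.58.1, other scalings and filters, a prior count of 2, a replicate block and the omission of each library. The fit was also run on simulated counts, with changes of a fixed size planted in genes above a minimum mean level. The results above do not rest on that run.

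The genes and lists were chosen with earlier results of these data known. All 10 genes were described whatever their values, and of the lists those named by the study, plus 2 identifiers that rose and 2 that fell with the largest absolute log2 fold change among genes with an adjusted p under 0.05 and at least 10 CPM in the higher group. The marker list is that of the study, without root cap. No sequences were used here.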

Additional observations from a re-analysis of the deposited data

Results flagged for a closer look

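Of 16 gene and group combinations examined for a single library far from the other 3, 1 stood out, where 0.8 would by chance. It was AMT1;2 (LOC_Os02g40710) in intact roots, where replicate 3 had 0.359 CPM and the other 3 libraries 0. This value is a single count.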

How the results depend on the processing

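The count of 6 lower transporter genes was the same under all 17 alternatives, which re-use the same libraries. The 1 higher gene, AMT2;1, was lost and the count became 0 under scaling to total counts (log2 fold change 0.58, edgeR adjusted p = 0.108, and 0 genes higher at an unadjusted p under 0.05), to upper quartiles (0.63, 0.0929, 1 gene) and with the replicate block in edgeR (0.88, adjusted p = 0.0590, 1 gene), while DESeq2 (0.76, 0.0358) and limma-voom (0.91, 0.0292) kept it. With single libraries left out, the count was 0 to 1 and the log2 fold change of AMT2;1 0.58 to 1.01. In the list of 36 nitrogen genes, 3 to 5 were higher with single libraries left out (3 without intact replicate 4) and 8 to 10 lower. Over all genes, 2618 were higher and 2430 lower with TMM. Total counts gave 2048 higher and 3722 lower genes, and upper quartiles 2096 and 3507. These scalings moved the median of all genes by -0.31 and -0.27, RLE size factors by -0.14, omission of the filter by -0.13, and that of digested replicate 2 by -0.18. No pairing by replicate number was seen (correlations of same-numbered deviations -0.29, 0.05, -0.11 and -0.06, with 0 of 8 libraries closest to their own number). At the low depth of the digested libraries this check could miss a pairing. Among the transporter genes with more than 1 count in the series, depth limits NRT2.1 most, with 3.34 digested counts at its intact level. For NRT2.2, NRT2.3, NAR2.1, NRT1.1B and LOC_Os02g40730 that number was 22.2 to 64.7 and 2 to 9 were found, which leaves the size of the fall imprecise.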
